A study of Mus musculus with 2 samples.

Results

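Hepatoblasts were studied in wild-type CD1 mouse embryos at embryonic day 10.0, among single cells dissected from the heart tube and the posterior second heart field. The second heart field is the mesoderm behind the heart that adds cells to the heart tube. Gene expression was measured by Drop-seq, a droplet method that tags each captured messenger RNA with a unique molecular identifier (UMI), so that copies made by amplification are not counted again. The 2 libraries, replicates 1 and 2 of 1 group, each pooled about 80 embryos and were processed on different days, so neither library gives a value for a single embryo and no treatment or genotype was compared. A cell passed with at least 400 genes detected and at most 10% of its UMIs from mitochondrial genes. A passing cell counted as a hepatoblast when Afp, Alb, Apoa1 and Apoa2 together made up at least 0.5% of its UMIs and haemoglobin genes under 15%. Members were thus chosen by the measured levels of these 4 genes. This gave 100 cells of 8972 passing cells and 12497 barcodes: 57 of 4038 passing cells in replicate 1 and 43 of 4934 in replicate 2.

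Hepatoblasts are the progenitors of the liver's hepatocytes and bile duct cells. They arise from ventral foregut endoderm that lies against the heart, and signals from heart mesoderm and from the septum transversum are known to induce them. They leave the endoderm as a bud, switch on secreted plasma proteins before metabolic enzymes, and later host blood formation. The dissected tissue was heart and its progenitor field, and the labels name no liver.

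Hepatoblasts made up 1.41% of the passing cells in replicate 1 (exact 95% binomial interval 1.07 to 1.83%) and 0.872% in replicate 2 (0.631 to 1.17%), a mean of 1.14% ± 0.382 (SD, n = 2). The libraries held 11958912 and 14131384 UMIs, of which hepatoblasts held 202171 and 183500. A hepatoblast had a median of 1543 UMIs in replicate 1 (508 to 28067) and 2696 in replicate 2 (485 to 22593), and the 3 deepest cells held 35.2% and 28.9% of the hepatoblast UMIs. The libraries shared 82 barcodes, none of them among the hepatoblasts. Intervals and count limits here cover counting error only.

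The 4 gating genes encode proteins that the fetal liver secretes. Afp (alpha-fetoprotein), the main fetal serum protein, made up 72.9% and 68.0% of the gating UMIs in replicates 1 and 2, and every hepatoblast had at least 1 Afp UMI. Apoa2, a protein of high-density lipoprotein, made up 20.7% and 24.6%, and was found in 48 of 57 and 42 of 43 cells. Alb (albumin) made up 3.82% and 3.05%, in 31 and 24 cells, and Apoa1, the main protein of high-density lipoprotein, 2.54% and 4.35%, in 21 and 25 cells. In UMIs scaled to a class total of 1000000 (CPM), Afp stood at 8963 and 5962 in replicates 1 and 2, Apoa2 at 2547 and 2153, Alb at 469.9 and 267 and Apoa1 at 312 and 381. Only 16 cells in each library had a UMI of all 4 genes. The gate therefore rested mostly on Afp and Apoa2. These values chose the cells and are given without a test.

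Alb, Afp and Afm (afamin) belong to the albumin family and lie next to each other on chromosome 5 in the same orientation. Their promoters are shown because all 3 genes were detected in the hepatoblasts, and that of Fgb because this fibrinogen gene was not used in the gate. The 250 bases before each RefSeq start (GRCm38.p6) read as follows, with GTTAAT, a half-site known to be bound by HNF1 factors, in capitals on either strand.
Alb, chr5:90460620-90460869, plus strand: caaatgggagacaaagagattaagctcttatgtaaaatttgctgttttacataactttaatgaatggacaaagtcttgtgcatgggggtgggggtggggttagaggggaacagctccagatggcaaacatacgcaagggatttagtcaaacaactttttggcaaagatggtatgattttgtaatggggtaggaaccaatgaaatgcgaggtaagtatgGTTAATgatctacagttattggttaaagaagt
Afp, chr5:90490464-90490713, plus strand: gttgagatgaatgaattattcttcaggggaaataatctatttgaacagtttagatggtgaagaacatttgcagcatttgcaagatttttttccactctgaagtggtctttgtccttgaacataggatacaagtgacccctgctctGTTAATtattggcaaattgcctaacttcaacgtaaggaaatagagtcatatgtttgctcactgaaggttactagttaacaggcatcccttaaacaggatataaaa
Afm, chr5:90518699-90518948, plus strand: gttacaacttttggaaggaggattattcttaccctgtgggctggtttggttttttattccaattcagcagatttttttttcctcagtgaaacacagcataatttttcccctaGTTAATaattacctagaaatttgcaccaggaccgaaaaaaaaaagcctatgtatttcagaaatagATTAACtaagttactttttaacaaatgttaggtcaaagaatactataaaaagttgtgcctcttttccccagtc
Fgb, chr3:83049864-83050113, minus strand: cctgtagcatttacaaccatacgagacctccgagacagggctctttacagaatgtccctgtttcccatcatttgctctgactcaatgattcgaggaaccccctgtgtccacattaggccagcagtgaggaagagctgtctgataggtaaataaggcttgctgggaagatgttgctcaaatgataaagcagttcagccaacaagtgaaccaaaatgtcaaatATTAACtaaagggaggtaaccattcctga
The marked bases began 32 bases before the start in Alb, 105 in Afp, 138 and 73 in Afm, and 29 in Fgb.

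GTTAAT was found, on either strand, in 13 of the 42 RefSeq windows that matched the plasma protein list (31.0%), and in 2113 of all 32851 windows (6.43%). Serpina1a to Serpina1e, near-identical copies, supplied 5 of those 13. Outside that list it was also found before Hnf4a. Among forkhead motifs, TGTTTGC was found in 9 of 42 windows (21.4%, against 4.30% of all) and also before Alb, Afp, Apoa1 and Prox1. Those 9 were the Serpina1a to Serpina1e copies with A1bg, Ahsg, Ambp and Fetub. TGTTTAC was found in 3 (7.14%, against 3.17%). CAAAGTCCA, an HNF4 motif, was found in 0 of 42 (0.384% of all), TTGCNNAAT, a C/EBP motif that can share 4 bases with TGTTTGC, in 4 (9.52%, against 2.11%) and ATCGAT, an Onecut motif, in 3 (7.14%, against 0.728%). The ATCGAT windows were those of Ambp and of the copies Serpina1c and Serpina1e. A match describes the letters of a window and is no evidence of binding.

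The label was checked against markers that the gate did not use. Ttr (transthyretin), the carrier of thyroid hormone, was found at 2038 and 2343 CPM in hepatoblasts, Fgb at 2147 and 1722, Serpinf2 (alpha-2-antiplasmin) at 861 and 856, Trf (transferrin) at 777 and 654, Rbp4 (retinol binding protein) at 1558 and 1286, and Hnf4a, a nuclear receptor that directs hepatocyte genes, at 138 and 38.1. The 8 hepatoblast markers outside the gate, which also hold Apob and Apom, were all detected in each library and summed to 7692 and 7209.8 CPM. The same sum was 448 and 514 CPM in cells gated as foregut endoderm and at most 37.5 CPM in the other classes compared in either library. In free RNA, read from barcodes of 10 to 200 UMIs, it was 229.5 and 90.1 CPM, from 2 and 5 UMIs, and Serpinf2, Ttr and Trf were at 0 UMIs.

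**Figure D1:**
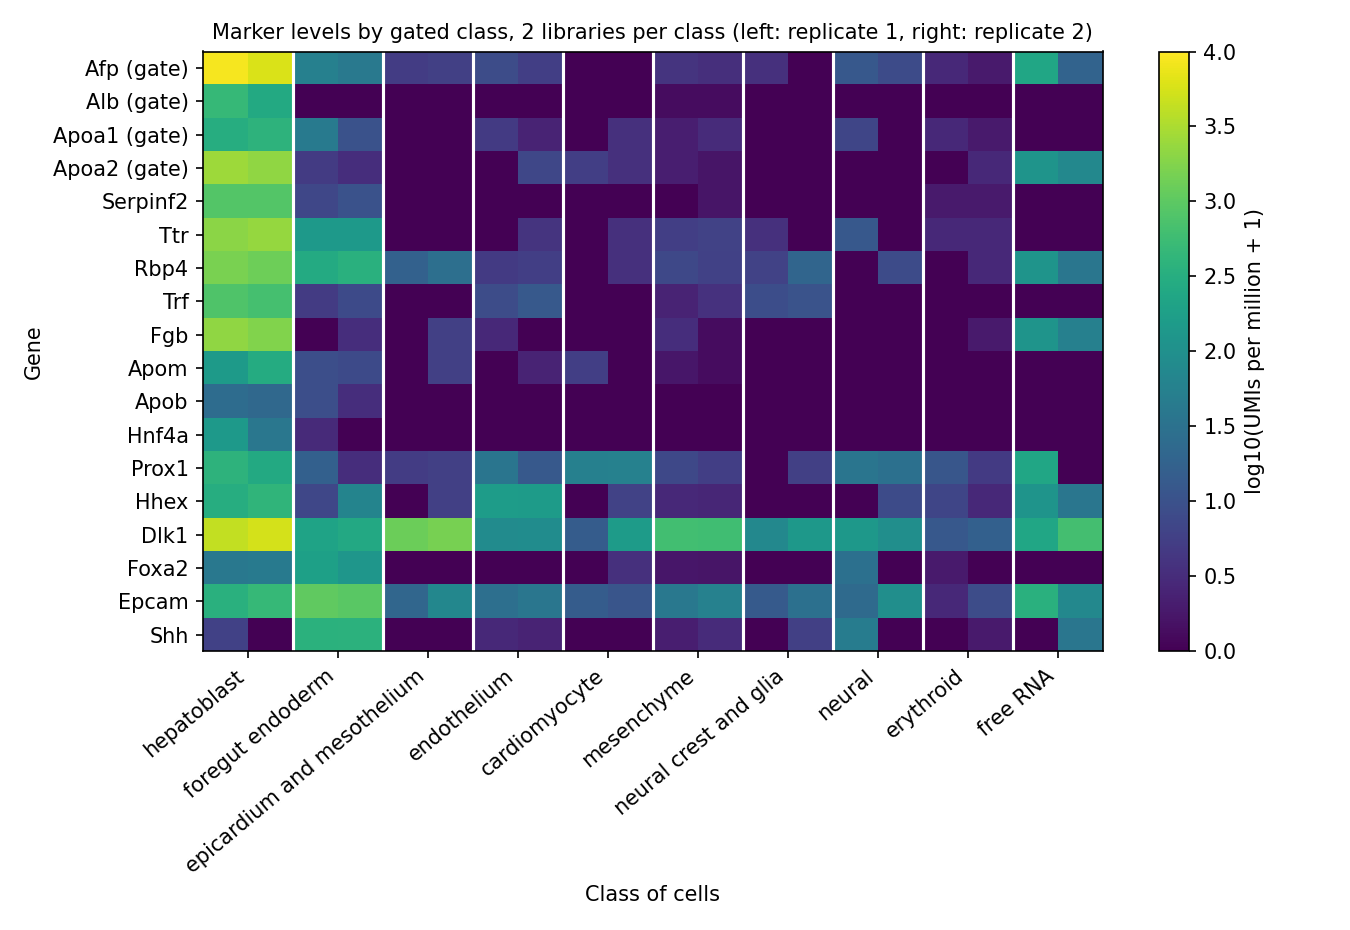
Level of 18 genes (rows, log10 of CPM + 1) in 9 gated classes and in free RNA (columns, replicate 1 on the left and replicate 2 on the right of each pair). The hepatoblast columns are bright for the gating genes and for Serpinf2, Ttr, Rbp4, Trf and Fgb, with Ttr at 2038 and 2343 CPM against 138 and 145 in foregut endoderm, and dark for Shh.

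Outside the endoderm, markers of other cell types were low in hepatoblasts. Foregut endoderm markers are not summed here. Hepatoblasts carried Epcam, Cldn6 and Cdh1 of that set, with Epcam at 0.328 and 0.514 times its foregut endoderm level in replicates 1 and 2. Summed marker CPM was 119 and 114 for cardiomyocytes, 119 and 104 for mesothelium, 84.1 and 104 for endothelium, 54.4 and 43.6 for mesenchyme, 39.6 and 16.3 for neural cells, 4.95 and 10.9 for neural crest, 4.95 and 5.45 for surface ectoderm, and 0 and 5.45 for macrophages and megakaryocytes. Erythroid markers stood at 1068 and 1210 CPM, against 1250 and 1193 in foregut endoderm and 36153 and 22939 in free RNA. Egfl7 carried nearly all of the endothelial sum, at 79.1 and 104 CPM, while Cdh5, Kdr and Emcn were at 0 UMIs. Yolk sac visceral endoderm also makes Afp and apolipoproteins: its 16 markers summed to 411 and 294 CPM in hepatoblasts and 376 and 378 in foregut endoderm. Amn, Rhox5, Apoa4, Muc13, Slc13a4, Entpd2 and Npl were at 0 UMIs in hepatoblasts, Cubn had 1 UMI, and Cpn1, Spp2, Ctsz and Pla2g12b carried most of the sum. Pdx1 and Ptf1a, the factors that define the pancreatic bud, were at 0 UMIs.

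Among the hepatoblasts, 3 cells of replicate 1 and 6 of replicate 2 also met the foregut endoderm gate. Of these same cells, 2 and 2 met the endothelial gate as well. Without them the hepatoblast UMIs fell from 202171 to 160895 in replicate 1 and from 183500 to 111389 in replicate 2. Scrublet called 0 and 1 doublets among all passing cells, so it gave no usable call, and no hepatoblast was among the highest 5% of doublet scores. Haemoglobin reached at most 1.88% and 0.468% of a hepatoblast's UMIs, so the haemoglobin limit removed no cell.

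Transcripts of the 4 gating genes made up a median of 1.22% of a hepatoblast's UMIs in replicate 1 (0.515 to 4.67%) and 0.907% in replicate 2 (0.505 to 2.68%). The cells just inside the limit had 0.515, 0.570 and 0.571% in replicate 1 and 0.505, 0.521 and 0.533% in replicate 2. Those just outside had 0.482, 0.459 and 0.438%, and 0.498, 0.455 and 0.428%. The limit cut through a continuous range of values.

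Plasma protein transcripts varied between hepatoblasts. The 51 listed genes, which leave out the gate, made up a median of 1.15% of a hepatoblast's UMIs in replicate 1 (0.170 to 4.34%) and 0.999% in replicate 2 (0.268 to 3.09%), and no hepatoblast lacked a UMI of the list. The cells were chosen on the gating share, so its relation to other genes is given as a description only. Across cells, Spearman's rho between the gating and the plasma share was 0.687 over 57 cells and 0.461 over 43. Both shares have the same cell total as their denominator, and rho between gating share and depth was 0.019 and -0.263.

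Levels in bands of the gating share describe the same cells. Rbp4 stood at 840 and 876 CPM in the 22 and 23 cells with a gating share of 0.5 to 1%, and at 2023 and 1963 in the 27 and 18 cells with 1 to 2%. Serpinf2 stood at 681 and 638 CPM in the lower band and at 896 and 1262 in the higher, and Trf at 454 and 561 and at 983 and 826. In the 23 and 16 passing cells just under the limit, at 0.25 to 0.5%, Rbp4 was at 674 and 667 CPM, and Serpinf2 at 460 and 508. Ttr and Prox1 did not follow this order. Ttr stood at 1761 and 2666 CPM just under the limit, at 1635 and 1965 in the lower band and at 2437 and 3054 in the higher. Prox1 stood at 432 and 323 CPM in the lower band and at 328 and 187 in the higher. Only 8 and 2 cells had a gating share of 2% or more.

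**Figure D2:**
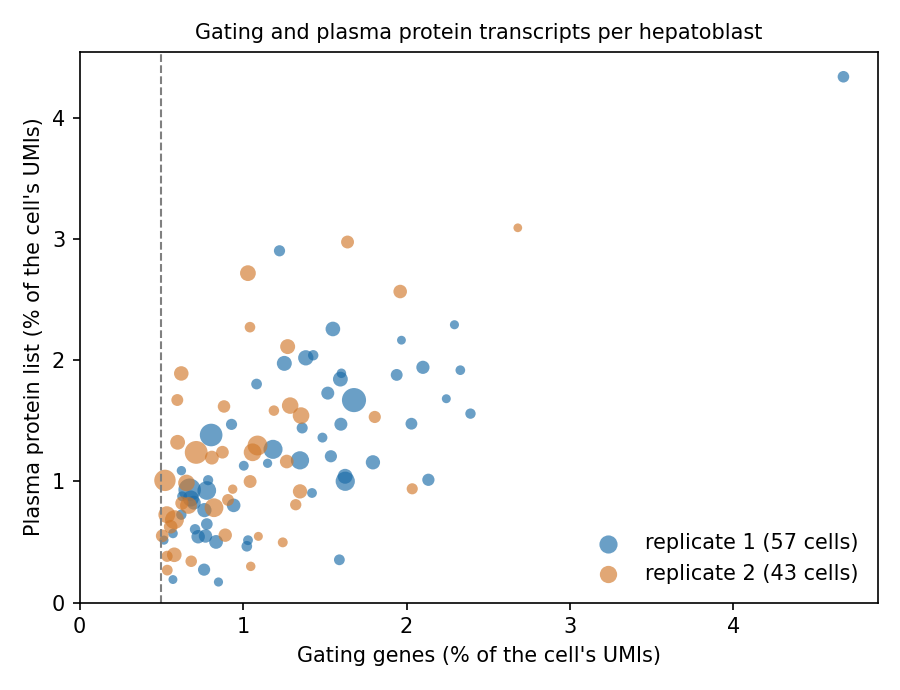
Each point is 1 hepatoblast, with the gating genes (horizontal axis, % of its UMIs) against the plasma protein list (vertical axis, % of its UMIs), sized by the square root of its UMIs and coloured by library. Points run upward to the right in both libraries, with rho 0.687 over 57 cells and 0.461 over 43, and the dashed line marks the limit of 0.5%.

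Detection showed how the levels spread over cells. Ttr was found in 47 of 57 hepatoblasts of replicate 1 (82.5%, exact 95% interval 70.1 to 91.3%) and in 39 of 43 of replicate 2 (90.7%, 77.9 to 97.4%). In foregut endoderm cells it was found in 24 of 123 (19.5%) and 22 of 110 (20%), and in mesenchyme, which should lack it, in 1.39 and 2.33% of cells. Median depths were 1543 and 2696 UMIs in hepatoblasts, 2932 and 2760.5 in foregut endoderm, and 5141 and 4509 in mesenchyme. After thinning to 1000 UMIs, which left out 21 and 5 hepatoblasts and 4 and 6 foregut endoderm cells, Ttr was found in 88.9% and 81.6% of hepatoblasts and 6.72% and 10.6% of foregut endoderm cells. Thinned detection of Serpinf2 was 58.3% and 57.9% against 0.840% and 0.962%. The foregut endoderm cells thus held some Ttr but little Serpinf2.

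Which genes differed between hepatoblasts and cells gated as foregut endoderm was tested on summed counts. The gated cells came from the same stage and dissection, and the gate did not single out the endoderm that gives rise to the liver. Foregut endoderm was gated on at least 2 UMIs of Epcam, Cldn6 and Cdh1 with at least 1 of Foxa2, Shh and Nkx2-1, which gave 123 and 110 cells with 499945 and 428347 UMIs. Of 7848 genes tested, 358 were higher in hepatoblasts (4.56%) and 414 lower (5.28%), together 9.84%, at an adjusted p under 0.05 (Benjamini-Hochberg, from the two-sided quasi-likelihood F test of edgeR). With DESeq2, higher genes made up 56.4% of the calls rather than 46.4%. Against the mean of the log levels of all 7 other classes (foregut endoderm, mesothelium, endothelium, cardiomyocytes, mesenchyme, neural crest and neural cells), 650 genes were higher (8.28%) and 454 lower (5.78%), together 14.1%. With DESeq2 higher genes made up 68.9% of the calls rather than 58.9%. The labels call the libraries biological replicates, and the classes were drawn by gates from the same 2 libraries, so the p-values describe differences between gated classes and not between animals. A difference in summed counts can come from more cells with a transcript or from more transcripts per cell.

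Among the 17 lists, plasma proteins had the highest median above foregut endoderm. Of 51 listed genes, 37 had a UMI in hepatoblasts and 23 passed the filter on low counts. Of those, 22 were higher than in foregut endoderm, against 4.56% of all tested genes. The same number were higher than in the other classes, against 8.28% of all tested genes. A gene could pass through the class where it is high, and 6 of the 23 had 0 UMIs in foregut endoderm, so this count describes the list and supports nothing further. The median log2 fold change was 3.80 with genes at 0 UMIs set to their bound, against -0.06 over all tested genes. The exception was Serping1, the C1 inhibitor.

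Fibrinogen, the precursor of the clot, was nearly confined to hepatoblasts in this comparison. Fgb stood at 2147 and 1722 CPM in hepatoblasts and at 0 and 2.33 in foregut endoderm, where it had 1 UMI, a ratio of 1805 (95% counting interval 323 to 71396, edgeR adjusted p = 4.51e-30). Fgg, the gamma chain, stood at 341 and 283 CPM against 2.0 and 2.33 (2 UMIs, ratio 146, 39.5 to 1216, edgeR adjusted p = 2.35e-12). Fga, the alpha chain, stood at 79.1 and 32.7 CPM against 0 UMIs, at least 8.6-fold higher where 3 UMIs per library set the floor (edgeR adjusted p = 0.00101). All 3 chains were thus present in hepatoblasts of both libraries and almost absent from foregut endoderm.

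Other clotting and protease inhibitor genes followed. Serpinf2, the inhibitor of plasmin, stood at 861 and 856 CPM against 6.0 and 9.34 (112-fold, log2 6.85 ± 0.35 (SE), edgeR adjusted p = 1.51e-21). Serpinc1 (antithrombin) stood at 84.1 and 136 CPM against 2.0 and 7.0 (24.5-fold, edgeR adjusted p = 8.80e-06), which was 42-fold in replicate 1 and 19.5-fold in replicate 2. Serpind1 (heparin cofactor II) and F2 (prothrombin), at 94 and 87.2 and at 69.2 and 54.5 CPM, had 0 UMIs in foregut endoderm and were at least 13.9-fold and 9.52-fold higher (edgeR adjusted p = 1.33e-05 and 4.02e-04). Serpina1a, Serpina1b, Serpina1c and Serpina1d, which encode near-identical alpha-1-antitrypsins and may share reads, were 8.72 to 19.5-fold higher. Serpina1c was 7.42-fold in replicate 1 and 35-fold in replicate 2. Serpina1b and Serpina1c lost their calls with DESeq2, and Serpina1d without the 3 deepest cells of each library.

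Carrier proteins were higher too. Trf, which carries iron, stood at 777 and 654 CPM against 4.0 and 7.0 (130.0-fold, log2 7.07 ± 0.38 (SE), edgeR adjusted p = 3.42e-21). Ambp, the precursor of alpha-1-microglobulin, stood at 1464 and 1319 CPM against 62 and 60.7 (22.7-fold, edgeR adjusted p = 1.89e-23), and Itih2, a chain of the inter-alpha-trypsin inhibitor that binds the other product of Ambp, at 1291 and 1052 against 24 and 11.7 (65.7-fold, edgeR adjusted p = 2.70e-22). Ttr, Rbp4 and Vtn (vitronectin) were partly shared with foregut endoderm. Ttr was 15.5-fold higher (edgeR adjusted p = 6.67e-28). Rbp4, at 1558 and 1286 CPM against 282 and 341, was 4.57-fold higher (edgeR adjusted p = 6.93e-18), and Vtn, at 415 and 343 against 98 and 131, 3.32-fold higher (edgeR adjusted p = 1.73e-06). Afm and Serpina6, the carriers of vitamin E and of corticosteroids, had 0 UMIs in foregut endoderm and stood at 114 and 49 and at 143 and 163 CPM in hepatoblasts, at least 12.5-fold and 23.6-fold higher (edgeR adjusted p = 6.32e-05 and 6.15e-08). With DESeq2, 16 of the 23 plasma protein genes were higher than in foregut endoderm, and calls lost included Fga, Afm and F2, at 0 UMIs in the comparison class.

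Lipoprotein genes formed a smaller group. Of 27 listed genes 9 were tested, and 6 of them were higher than in foregut endoderm and none lower. Over all tested genes 4.56% were higher and 5.28% lower. The median log2 fold change of the list was 2.77. A gene could pass the filter on low counts through the class where it is high, so this count describes the list only. Apoe, the ligand through which the liver takes up remnant particles, stood at 2048 and 2932 CPM against 30 and 49 (63-fold, log2 6.04 ± 0.20 (SE), edgeR adjusted p = 9.86e-31). Endothelium came next for Apoe, at 731 ± 78.5 (SD, n = 2) CPM. Apom, the carrier of sphingosine-1-phosphate, stood at 148 and 289 CPM against 8.0 and 7.0 (29.1-fold, edgeR adjusted p = 1.12e-08), which was 18.5-fold in replicate 1 and 41.2-fold in replicate 2. Apoc1 was 20.3-fold higher, Mttp, which loads lipid on Apob, 6.6-fold, and Dgat2, which makes triglyceride, 6.38-fold. Apob itself stood at only 24.7 and 21.8 CPM against 8.0 and 2.33 and did not pass the filter on low counts.

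**Figure D3:**
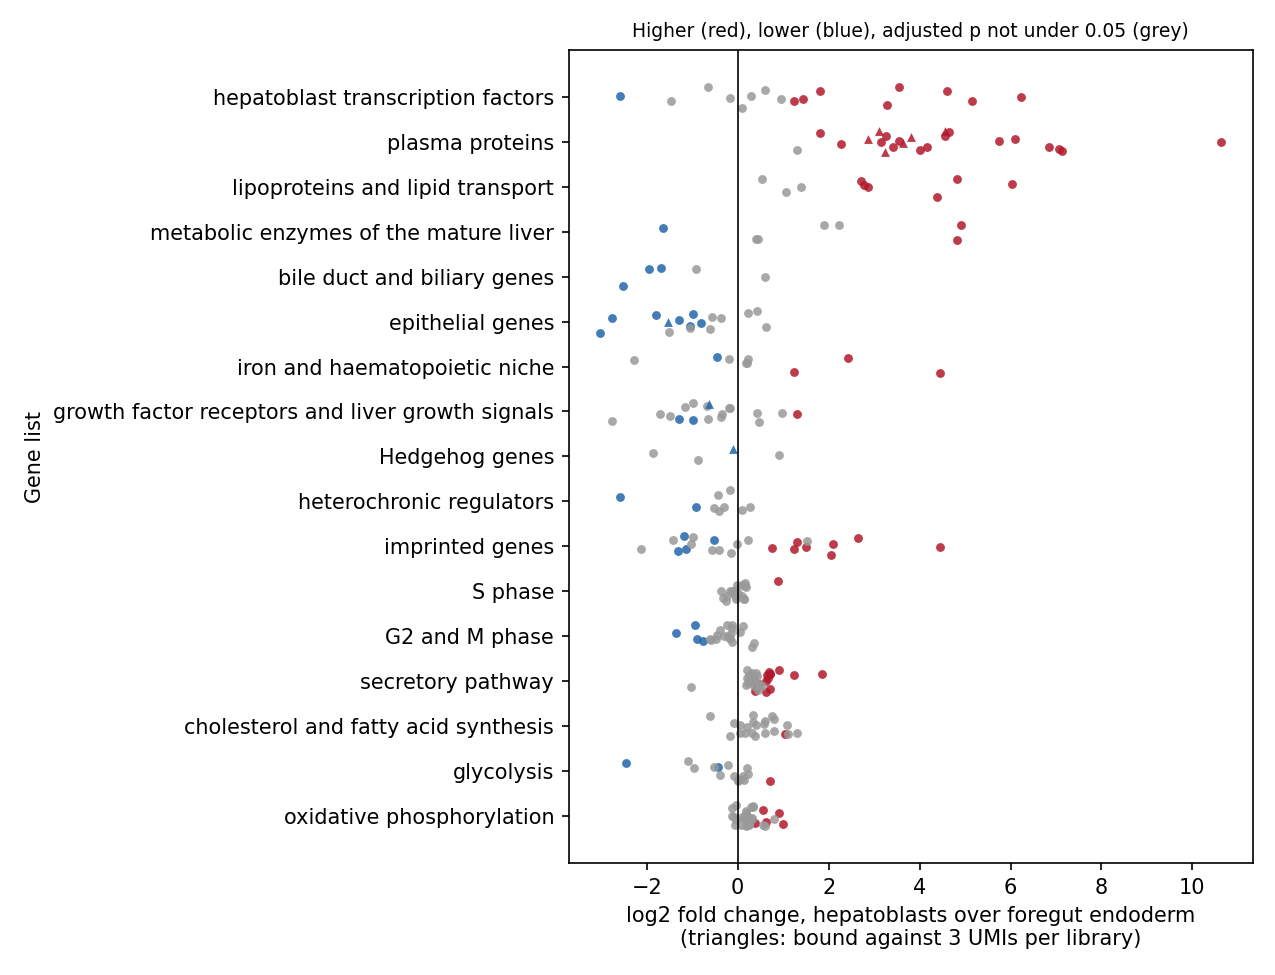
Log2 fold change of each tested gene (points) between hepatoblasts and foregut endoderm, by gene list (rows), in red where higher, in blue where lower and in grey where the adjusted p was not under 0.05, with triangles for bounds. Plasma proteins (22 of 23 higher) and lipoproteins (6 of 9) lie to the right, and epithelial genes (8 of 16 lower) and biliary genes (3 of 6 lower) to the left. Over all tested genes 4.56% were higher and 5.28% lower.

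Enzymes of the mature liver were mostly not detected. Of 33 listed genes, 20 had no UMI in hepatoblasts and 7 were tested. Of those 7, 2 were higher than in foregut endoderm and 1 lower, against 4.56% and 5.28% of all tested genes. Because a gene could pass the filter on low counts through its higher class, these counts describe the list only. Bhmt, which remethylates homocysteine, stood at 129 and 65.4 CPM against 4.0 and 2.33 (3 UMIs, ratio 30.5, 9.67 to 154, edgeR adjusted p = 9.10e-05). Ass1, an enzyme of the urea cycle, stood at 69.2 and 54.5 CPM against 4.0 and 0 (2 UMIs, ratio 28.9, 7.17 to 252, edgeR adjusted p = 1.92e-04). Arg1, the last enzyme of that cycle, went the other way, at 69.2 and 174 CPM against 398 and 385 (3.21-fold lower, 5.75-fold in replicate 1 and 2.21-fold in replicate 2, edgeR adjusted p = 1.42e-04), a call lost with DESeq2 or without the library term. Bhmt lost its call with DESeq2. Ass1 and Arg1 thus went in opposite directions in the reported fit. Asl, another enzyme of the urea cycle, was 17.3-fold higher in replicate 1 and 2.1-fold in replicate 2. It was not among the 2 genes called higher. Cps1 and Otc, the mitochondrial enzymes of the cycle, and Cyp7a1, which starts bile acid synthesis, were among the genes not tested.

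Of 26 listed hepatoblast transcription factors 16 were tested, and 8 were higher than in foregut endoderm and 1 lower. Among all tested genes 4.56% were higher and 5.28% lower. A factor could pass the filter on low counts through the class where it is high, so this count describes the list only. Prox1, needed for hepatoblasts to leave the bud, stood at 386 and 272 CPM against 16 and 2.33 (35.9-fold, log2 5.16 ± 0.42 (SE), edgeR adjusted p = 2.11e-14), which was 24.1-fold in replicate 1 and 117-fold in replicate 2. Hhex, needed for the bud to form, stood at 312 and 414 CPM against 6.0 and 63 (10.5-fold, log2 3.55 ± 0.35 (SE), edgeR adjusted p = 1.46e-11), which was 51.9-fold in replicate 1 and 6.57-fold in replicate 2, and was also present in endothelium at 159 ± 5.05 (SD, n = 2) CPM. Foregut endoderm of replicate 2 thus held more Hhex and less Prox1 than that of replicate 1, while the hepatoblast values lay within 1.5 times of each other.

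Nr5a2, a nuclear receptor of bile acid and lipid genes, stood at 163 and 131 CPM against 12 and 0 (24.5-fold, edgeR adjusted p = 7.39e-07), which was 13.6-fold in replicate 1 and without a finite fold in replicate 2, where foregut endoderm had 0 UMIs. Hnf4a stood at 138 and 38.1 CPM against 2.0 and 0 (1 UMI, ratio 84.2, 14.2 to 3421, edgeR adjusted p = 8.40e-05). Tbx3, which favours hepatocyte fate, stood at 198 and 163 CPM against 46 and 98.1 (2.51-fold, edgeR adjusted p = 0.00195), which was 4.3-fold in replicate 1 and 1.67-fold in replicate 2. Foxa3, at 44.5 and 59.9 CPM against 6.0 and 4.67, was 9.79-fold higher (edgeR adjusted p = 0.0217), Atf5, at 29.7 and 76.3 against 10 and 21, 3.42-fold (edgeR adjusted p = 0.0287), and Xbp1, which drives the secretory machinery, at 134 and 169 against 68 and 65.4, 2.27-fold (edgeR adjusted p = 0.00229). The count of higher factors was 4 with DESeq2, which lost Hnf4a, 5 without the library term and 5 with a gate of 1%, and Tbx3, Foxa3 and Atf5 lost their calls under each of these.

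Several factors that endoderm and liver share did not pass the test. Foxa1, a forkhead pioneer factor, stood at 79.1 and 70.8 CPM against 138 and 107 (log2 -0.65 ± 0.41 (SE), edgeR adjusted p = 0.389), Gata6 at 74.2 and 87.2 against 100.0 and 56 (log2 0.10 ± 0.35 (SE), edgeR adjusted p = 0.91) and Onecut1 at 64.3 and 38.1 against 42 and 14 (log2 0.96 ± 0.68 (SE), edgeR adjusted p = 0.443). The errors leave room for differences in either direction. Gata4, which helps the bud to grow, had only 2 UMIs in hepatoblasts, at 9.89 and 0 CPM against 34 and 32.7 (ratio 0.155, 0.018 to 0.61, edgeR adjusted p = 0.0473), a call lost under most alternatives. Cebpa, a hepatocyte factor, had 12 UMIs in hepatoblasts and 1 in foregut endoderm and was too low to test.

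**Figure D4:**
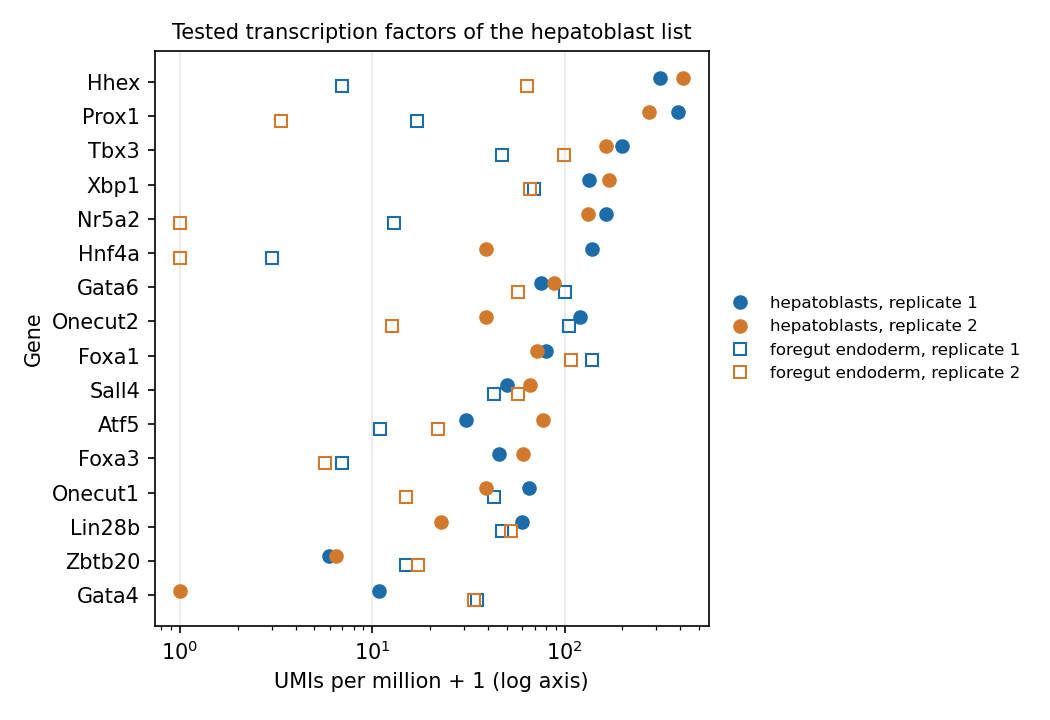
CPM + 1 (log axis) of the 16 tested transcription factors in hepatoblasts (filled circles) and foregut endoderm (open squares), coloured by library. Prox1, Hhex and Nr5a2 stand apart between the classes in both libraries, with Prox1 at 386 and 272 CPM against 16 and 2.33, while Foxa1, Gata6, Sall4 and Onecut1 lie close together.

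A part of the epithelial genes was lower than in foregut endoderm and higher than in the other classes. Of 24 listed genes, 3 were in a gate and 16 were tested. Of those 16, 8 were lower than in foregut endoderm, against 5.28% of all tested genes, and none higher. Compared with the mean of the other classes 11 were higher, against 8.28% of all tested genes. Since a gene could pass the filter on low counts through its higher class, these counts describe the list only. Krt18, a keratin of simple epithelia, stood at 425 and 632 CPM against 1088 and 1160.3 (2.13-fold lower, log2 -1.04 ± 0.14 (SE), edgeR adjusted p = 2.25e-07), and its partner Krt8 at 232 and 223 against 500.1 and 444 (2.07-fold lower, edgeR adjusted p = 0.0018). The tight junction gene Cldn4 stood at 29.7 and 27.2 CPM against 164 and 249.8 (7.27-fold lower, edgeR adjusted p = 3.64e-06), and Cldn7 at 153 and 245 against 308 and 292 (log2 -0.57 ± 0.25 (SE), edgeR adjusted p = 0.171). Cldn7 was called lower when cells that met another gate were left out. Grhl2, an activator of epithelial junction genes, had 0 UMIs in hepatoblasts and stood at 50 and 39.7 CPM in foregut endoderm, at least 2.88-fold lower (edgeR adjusted p = 0.00931). The foregut endoderm class was gated on Epcam, Cldn6 and Cdh1, which hepatoblasts also carried, at 346 and 485 CPM for Epcam against 1056 and 943, and the part of that gate in the result was not tested. The count of lower genes was 2 with DESeq2, 2 without the library term and 4 with a gate of 1%, and Grhl2 lost its call under each of these.

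No tested biliary gene was higher than in foregut endoderm. Of 17 listed genes 6 were tested, and 3 were lower, against 5.28% of all tested genes. The filter on low counts lets a gene pass through the class where it is high, so these counts describe the list only. Sox9, a factor of bile duct progenitors, stood at 14.8 and 32.7 CPM against 100.0 and 88.7 (3.97-fold lower, 6.74-fold in replicate 1 and 2.71-fold in replicate 2, edgeR adjusted p = 0.0033), Sox4 at 109 and 125 against 404 and 381 (3.35-fold lower, edgeR adjusted p = 2.74e-08) and Krt7, a duct keratin, at 24.7 and 49 against 214 and 226 (5.97-fold lower, edgeR adjusted p = 3.05e-06). Krt19, another duct keratin, stood at 64.3 and 43.6 CPM against 100.0 and 117 (log2 -0.92 ± 0.41 (SE), edgeR adjusted p = 0.164).

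Imprinted genes, expressed from the allele of 1 parent only, contained some of the best counted transcripts. All 22 listed genes were tested, and 8 were higher than in foregut endoderm and 4 lower, against 4.56% and 5.28% of all tested genes. The median log2 fold change was -0.08 against -0.06 over all tested genes. The list thus spread in both directions. Dlk1, a surface protein used to isolate fetal hepatoblasts, stood at 4249 and 5580.4 CPM against 208 and 259 (21-fold, log2 4.46 ± 0.17 (SE), edgeR adjusted p = 1.37e-28), and mesothelium came next at 1406 ± 181 (SD, n = 2) CPM. Meg3 and Rian, non-coding RNAs of the same imprinted cluster expressed from the other parental allele, stood at 2795 and 2817 CPM against 582 and 815 (4.02-fold, edgeR adjusted p = 3.91e-15) and at 173 and 109 against 30 and 16.3 (6.09-fold, edgeR adjusted p = 4.73e-06). Mirg, a further RNA of the cluster, stood at 69.2 and 38.1 CPM against 18 and 21 (log2 1.53 ± 0.58 (SE), edgeR adjusted p = 0.0844).

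The growth genes Igf2 and H19 were higher as well. Igf2, a fetal growth factor, stood at 2309.9 and 2387 CPM against 944 and 1151 (2.24-fold, log2 1.23 ± 0.13 (SE), edgeR adjusted p = 4.48e-11), and H19, its non-coding neighbour, at 6039 and 5798 against 3332 and 3976 (1.62-fold, edgeR adjusted p = 2.81e-07). Igf2r, the receptor that clears Igf2, stood at 213 and 272 CPM against 126 and 77 (2.39-fold, edgeR adjusted p = 1.35e-04), and Cdkn1c, an inhibitor of the cell cycle, at 1568 and 2229 against 430.0 and 529.9 (3.96-fold, edgeR adjusted p = 1.07e-09). Airn, which overlaps Igf2r on the other strand, had 5 UMIs in hepatoblasts. In the other direction, Peg3 stood at 875 and 452 CPM against 1970.2 and 1086 (2.3-fold lower, edgeR adjusted p = 6.04e-08) and Mest at 119 and 142 against 180.0 and 525 (2.71-fold lower, 1.52-fold in replicate 1 and 3.71-fold in replicate 2, edgeR adjusted p = 7.31e-04). Without the library term the 8 higher calls remained 8 in number and no lower call was made.

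**Figure D5:**
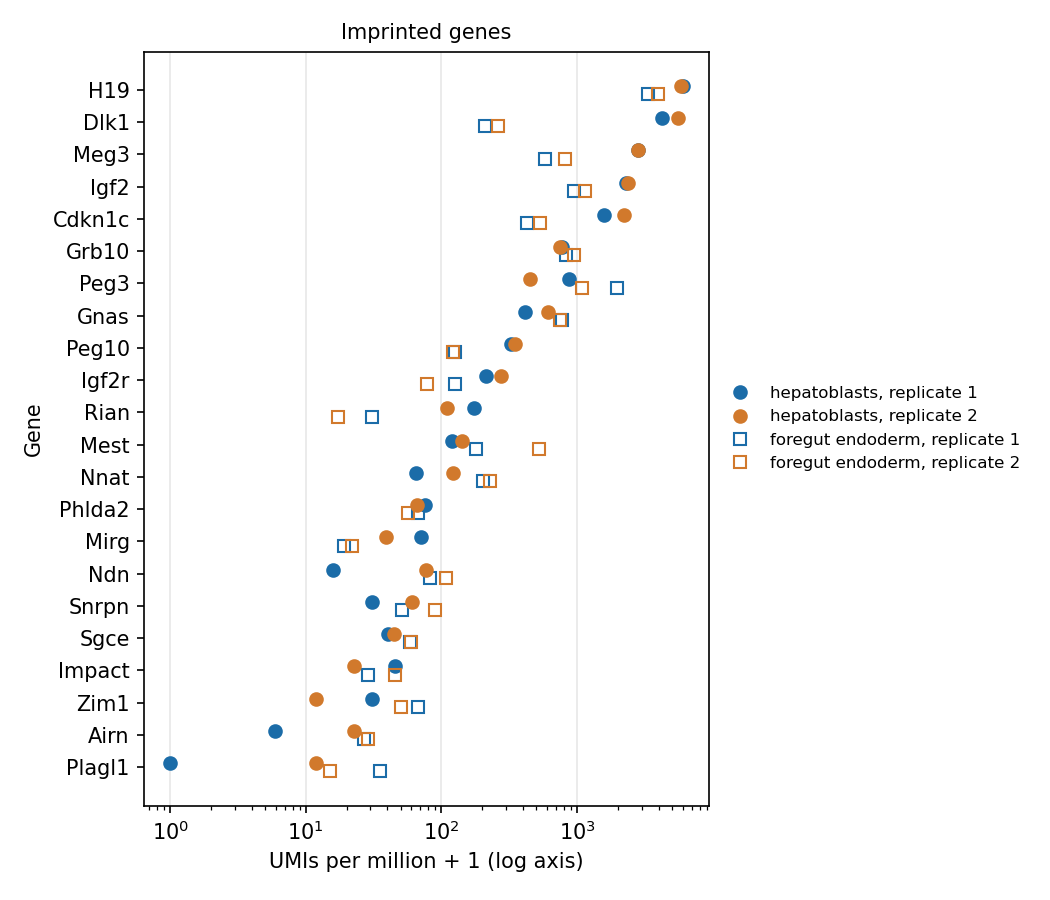
CPM + 1 (log axis) of the 22 imprinted genes in hepatoblasts (filled circles) and foregut endoderm (open squares), coloured by library and ordered by hepatoblast level. Dlk1, at 4249 and 5580.4 CPM, and Meg3, Cdkn1c and Igf2 lie well right of foregut endoderm, and Peg3, Mest and Nnat lie left of it.

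Genes for iron handling and for the support of blood formation gave a mixed picture. Of 20 listed genes 9 were tested, and Dlk1, Igf2 and Kitl were higher than in foregut endoderm and Fth1 lower. The shares over all tested genes were 4.56% higher and 5.28% lower. Kitl (stem cell factor), which fetal liver presents to blood progenitors, stood at 326 and 114 CPM against 52 and 32.7 (5.21-fold, log2 2.43 ± 0.31 (SE), edgeR adjusted p = 2.74e-08), the replicate 1 value being the higher. Kitl was also present in mesothelium at a mean of 241 CPM. Fth1 (ferritin heavy chain) stood at 1365 and 1341 CPM against 1760.2 and 2117 (1.43-fold lower, edgeR adjusted p = 0.00464), a call lost without the library term, with a gate of 1% or without the 3 deepest cells of each library. Tfrc, the receptor that takes up Trf, stood at 148 and 131 CPM against 146 and 109.7 (log2 0.19 ± 0.27 (SE), edgeR adjusted p = 0.756).

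A part of the protein secretion genes was modestly higher. Of 35 listed genes 34 were tested, and 15 were higher than in foregut endoderm and none lower, against 4.56% and 5.28% of all tested genes. The median log2 fold change of the list was 0.43. The list took 2.09% and 1.76% of hepatoblast UMIs against 1.57% and 1.33% in foregut endoderm. Hspa5 (BiP), the main chaperone of the endoplasmic reticulum, stood at 3893 and 2507 CPM against 2478 and 1616 (1.56-fold, log2 0.71 ± 0.11 (SE), edgeR adjusted p = 1.74e-06). Ddost, a subunit of the glycosylating enzyme complex, stood at 469.9 and 490.5 CPM against 316 and 296 (1.57-fold, edgeR adjusted p = 0.00274), and P4hb, which forms disulfide bonds, at 717 and 796 against 480.1 and 553 (1.46-fold, edgeR adjusted p = 0.00225). These calls depended on the library term, without which 1 of the 34 genes was higher, and 8 were higher with no filter on low counts.

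Of the energy and lipid genes, those of oxidative phosphorylation were called higher than in foregut endoderm most often. Of 31 genes 5 were higher, against 4.56% of all tested genes, and none lower, led by the ADP carrier Slc25a5 at 861 and 1041 CPM against 460.1 and 607 (1.78-fold, edgeR adjusted p = 6.68e-06). That count was 1 with a gate of 1%, with a gate of 0.25% or without the library term, 2 or 3 with other scalings, with no filter on low counts or without cells that met another gate, and 8 with only 2 classes in the fit. Compared with the mean of the other classes, none of the 31 was higher and 2 were lower, against 5.78% of all tested genes lower. In cholesterol and fatty acid synthesis 1 of 22 tested genes was higher and none lower, a count that was 0 with DESeq2 or without the library term and 5 with only 2 classes in the fit. Against the mean of the other classes 12 of the 22 were higher, where 8.28% of all tested genes were. That count was 7 with a gate of 1%, without the library term, with no filter on low counts or without cells that met another gate. In glycolysis 1 of 16 tested genes was higher and 2 were lower, against 4.56% and 5.28% of all tested genes. Without the library term none was higher and 1 lower. Slc2a3 (GLUT3), a glucose transporter, stood at 79.1 and 136 CPM against 672 and 529.9 (5.58-fold lower, 8.49-fold in replicate 1 and 3.89-fold in replicate 2, edgeR adjusted p = 2.63e-09). Slc2a2 (GLUT2), the glucose transporter of the liver, had 8 UMIs in hepatoblasts and 0 in foregut endoderm, too few to test.

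Calls among cell cycle genes depended on the library term. Of 20 S phase genes 1 was higher than in foregut endoderm, against 4.56% of all tested genes, and none lower. Of 22 genes of G2 and M phase 4 were lower (Aurkb, Cenpf, Kif23 and Nusap1), against 5.28% of all, and none higher. All 5 calls were lost without the library term, and the G2 and M count was 2 with DESeq2 and 7 without the 3 deepest cells of each library. The S phase list took 0.367% and 0.352% of hepatoblast UMIs against 0.366% and 0.384%, and the G2 and M list 0.560% and 0.417% against 0.702% and 0.539%. Every hepatoblast had a UMI of these 2 lists.

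Signalling genes were mostly low. Shh, the Hedgehog ligand of foregut epithelium and a gating gene of the foregut class, had 1 UMI in hepatoblasts and 334 in foregut endoderm, and Gli1, a Hedgehog target, had 0 in hepatoblasts. Ptch1, receptor and target of the pathway, stood at 4.95 and 21.8 CPM against 48 and 51.4 (log2 -1.86 ± 0.64 (SE), edgeR adjusted p = 0.0526), a difference that passed in some alternatives. Of 17 listed Hedgehog genes 4 were tested. Gli3 had 0 UMIs in hepatoblasts and 15 in foregut endoderm (edgeR adjusted p = 0.0431), where its mean level of 16.7 CPM lay near the 15.6 CPM that 0 UMIs allow in hepatoblasts. No Hedgehog gene was called with DESeq2, with a gate of 1%, with no filter on low counts or without the library term. Among growth factor receptors and liver growth signals 1 of 18 was higher, Igf2r, and 3 lower, against 4.56% and 5.28% of all tested genes. The lower count was 1 with DESeq2, with a gate of 1%, without cells that met another gate or without the 3 deepest cells of each library, and 0 without the library term. Id3, a target of BMP signalling, stood at 232 and 332 CPM against 484 and 686 (2.07-fold lower, edgeR adjusted p = 7.87e-05), while Id2 stood at 1152 and 1063 against 854 and 878 (log2 0.42 ± 0.15 (SE), edgeR adjusted p = 0.0558). Met, the receptor for hepatocyte growth factor, had 11 UMIs and was not tested.

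Regulators of developmental timing were present throughout. Of 9 listed genes, all tested, none was higher and 2 were lower than in foregut endoderm, against 4.56% and 5.28% of all tested genes. Mycn, a growth regulator of early progenitors, stood at 24.7 and 21.8 CPM against 140.0 and 154 (6.32-fold lower, log2 -2.59 ± 0.41 (SE), edgeR adjusted p = 3.64e-06) and was also lower than the mean of the other classes (log2 -2.05 ± 0.40 (SE), edgeR adjusted p = 9.55e-05). Hmga2, a chromatin protein of fetal cells, stood at 381 and 272 CPM against 774 and 528 (1.99-fold lower, edgeR adjusted p = 1.00e-04), lost without the library term. Lin28a and Lin28b, which block maturation of let-7 microRNAs, stood at 79.1 and 87.2 and at 59.4 and 21.8 CPM in hepatoblasts, with edgeR adjusted p = 0.326 and 0.885 against foregut endoderm.

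Among genes outside the lists, the 10 with the largest changes above foregut endoderm were named. Paqr9 stood at 173 and 131 CPM and had 0 UMIs in foregut endoderm, at least 23.4-fold higher (edgeR adjusted p = 3.95e-08). Pla2g12b, which takes part in lipoprotein secretion, stood at 49.5 and 59.9 CPM against 0 UMIs, at least 8.41-fold higher (edgeR adjusted p = 4.37e-04). Reln (reelin), a secreted protein known from neuronal migration, stood at 173 and 185 CPM against 2.0 and 0 (1 UMI, edgeR adjusted p = 6.82e-09), and the mean of the 7 other classes was 0.459 ± 0.0138 (SD, n = 2) CPM. Lect2, a hepatokine, stood at 59.4 and 153 CPM against 0 and 2.33 (1 UMI, edgeR adjusted p = 1.19e-05), Akr1c12 at 39.6 and 70.8 against 2.0 and 0 (1 UMI, edgeR adjusted p = 0.00187) and Igfbp1, a liver-secreted binding protein of insulin-like growth factors, at 59.4 and 43.6 against 0 and 4.67 (2 UMIs, edgeR adjusted p = 0.00622). Lpl (lipoprotein lipase) stood at 277 and 299.7 CPM against 8.0 and 18.7 (21.6-fold, 34.6-fold in replicate 1 and 16-fold in replicate 2, edgeR adjusted p = 7.20e-14), with cardiomyocytes next at 196 ± 2.63 (SD, n = 2) CPM.

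Pcolce2, an enhancer of procollagen processing, stood at 138 and 158 CPM against 2.0 and 7.0 (32.9-fold, 69.2-fold in replicate 1 and 22.6-fold in replicate 2, edgeR adjusted p = 4.57e-08). Spp2, a secreted phosphoprotein, stood at 109 and 65.4 against 2.0 and 7.0 (19.3-fold, 54.4-fold in replicate 1 and 9.34-fold in replicate 2, edgeR adjusted p = 4.37e-04) and Lmna (lamin A), a nuclear envelope protein, at 69.2 and 70.8 against 2.0 and 7.0 (15.6-fold, 34.6-fold in replicate 1 and 10.1-fold in replicate 2, edgeR adjusted p = 1.37e-04). Pla2g12b and Spp2 were also on the list of visceral endoderm markers. With DESeq2, Lect2, Igfbp1 and Spp2 lost their calls. Against the mean of the other classes the same rule added Spink1, a trypsin inhibitor, at 223 and 294 CPM against 5.45 ± 1.94 (SD, n = 2), Habp2, a plasma protease, at 119 and 142 against 4.37 ± 1.09 (SD, n = 2), Gulo, the enzyme of vitamin C synthesis, at 119 and 76.3 against 3.0 ± 1.35 (SD, n = 2), and Kif12 at 49.5 and 59.9 against 1.24 ± 0.341 (SD, n = 2). Foregut endoderm came next for these 4 genes, and in that class they stood at 22 and 46.7, 36 and 23.3, 24 and 14 and 10 and 7.0 CPM.

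Among genes outside the lists, the 10 with the largest changes below foregut endoderm all had 0 UMIs in hepatoblasts. Nepn, a proteoglycan of the ventral foregut, stood at 1340.2 and 336 CPM in foregut endoderm and was at least 53.7-fold lower in hepatoblasts (edgeR adjusted p = 2.13e-19). Ripply3, a regulator of pharyngeal endoderm, stood at 120.0 and 95.7 CPM, at least 6.92-fold lower (edgeR adjusted p = 2.29e-07). Rfx6, a factor of the gut and pancreas, stood at 74 and 32.7 CPM, at least 3.42-fold lower (edgeR adjusted p = 0.00533). Tmprss2, an epithelial protease, at 72 and 53.7 CPM, Nrp2, a semaphorin and VEGF receptor, at 78 and 37.4, Ackr3, a chemokine receptor, at 34 and 74.7, and Zfp503, Txnip, Zbtb16 and Raet1e were at least 3.25 to 4.45-fold lower. Raet1e overlaps related copies on the same strand, Raet1d among them, so its counts are uncertain. With DESeq2, the calls of Nepn, Tmprss2 and Rfx6 were lost, that of Rfx6 also with a gate of 1%.

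Against the mean of the other classes the 10 lowest genes outside the lists were again at 0 UMIs in hepatoblasts. They were genes of other tissues: Mef2c, a factor of muscle and endothelium, with a mean of 125 ± 19.1 (SD, n = 2) CPM over the 7 classes (edgeR adjusted p = 4.01e-07), Ednrb, an endothelin receptor, with 122 ± 15.1 (SD, n = 2) (edgeR adjusted p = 1.06e-05), and Tmem88, Nrp2, Pmp22, Spon1, Crmp1, Wnt2, Ppp1r14c and Nefl. Endothelium was highest for Ednrb, Tmem88 and Nrp2, cardiomyocytes for Mef2c, Spon1, Wnt2 and Ppp1r14c, mesothelium for Pmp22, and neural cells for Crmp1 and Nefl. With a gate of 1% or without cells that met another gate Nefl and Wnt2 lost their calls, as they did without the library term, and Ppp1r14c lost its call with a gate of 1%. A level of 0 UMIs in hepatoblasts allows up to 3 UMIs per library, a mean of 15.6 CPM.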

How the data were processed

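Drop-seq libraries of 2 pools of embryos were used. The files the authors deposited hold UMI counts of each gene in each barcode, whole numbers without normalization. The submitters' processing notes name mm10 and Scanpy without versions; for the aligner, the counting tool, strand and barcode selection, what was used is not given in the sources used here. GENCODE M21 held 99.7% of the 52550 gene identifiers once version suffixes were dropped.

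Cells were filtered and gated as the report states, with a cell of more than 1 comparison gate left out. Sums of the counts were formed for each class of each library (8 classes, 16 sums, each class with at least 20 cells per library) and tested with edgeR 4.0.16 (R 4.3.3; quasi-likelihood F test, TMM, filterByExpr, class and library as terms, 7 residual degrees of freedom, Benjamini-Hochberg over 7848 genes). Gating genes of every class, haemoglobin, mitochondrial, Xist and Y-linked genes were left out of the tests. Both libraries supply every class, and the classes of a library share its embryos and day. Library deviations correlated between classes by 0.232 to 0.655 over 3976 genes, so library was a block. The p-values rest on 2 libraries.

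CPM are UMIs scaled to a class total of 1000000. Folds are ratios of mean CPM; against 0 UMIs the floor was 3 UMIs per library, and for 1 to 3 UMIs the exact 95% counting interval is given. In simulated data the foregut endoderm contrast recovered 35% of 2-fold and 72% of 4-fold changes, with 3 false calls among 6948 genes. Those counts were drawn with the spread estimated by the fit with the library term. The false calls therefore do not measure those in the real data. Named genes outside the lists were the 10 largest changes in each direction among qualifying genes. These had an adjusted p under 0.05, the same sign in both libraries and a level of at least 50 CPM. List members given with values had at least 20 CPM in hepatoblasts or foregut endoderm, apart from Gli3, which was below that level in both. Gating, untested or absent markers are named beside them. Some results are not reported here. The cell rule, lists, markers and tests were chosen with earlier results of these data known. Promoters come from RefSeq (GRCm38.p6), and the 6 motifs were chosen with some of these windows in view. Alternatives covered scaling (DESeq2 1.42.0, total counts), the filter, the library term, the gate, doublets (Scrublet), depth and each replicate left out.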

Additional observations from a re-analysis of the deposited data

How the results depend on the processing

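The counts of genes kept within 1.5 times of those reported under total counts without TMM, no filter on low counts, removal of cells in another gate, of the highest Scrublet scores or of cells under 800 genes, a fit of 2 classes only, and, chosen after seeing the data, a gate of 0.25%, removal of the 3 deepest hepatoblasts of each library or of foregut endoderm cells with a gating UMI. The Scrublet setting removed no hepatoblast, so it cannot show an effect of doublets among them. Without the replicate block, the genes higher and lower than in foregut endoderm were 159 and 155, and against the other classes 383 and 228. With a gate of 1% they were 211 and 242, and 389 and 225. DESeq2 gave 194 lower genes against foregut endoderm and 245 against the other classes; the causes were not tested. The hepatoblast share was 0.636% with a gate of 1%, 0.119% with 2% and 1.59% with 0.25%, and 0.872 to 1.41% with 1 replicate left out. No test was run at a gate of 2%, with 8 and 2 cells, or with 1 replicate, which leaves no residual degrees of freedom. Of 572 results for named genes, 259 of them called, 421 kept their side of the threshold under every alternative with a test, and none reversed. The 421 include results that were never called, so they do not give the share of calls that held. Of the 259 calls, DESeq2 alone lost 61, the fit without the block 77 and the gate of 1% 54. Depth sets a floor: in hepatoblasts 3 UMIs stand for 14.8 and 16.3 CPM, so genes under that level were not detectable as lower.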
